A study of Mus musculus with 6 samples.

Results

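The genes described here are the cytosolic ribosomal proteins, the protein parts of the ribosome outside the mitochondria. They were chosen by name alone: a gene symbol made of Rpl or Rps and a number, with or without one of the endings a, x, l, al or l1, and the stalk proteins Rplp0, Rplp1 and Rplp2 together with Rpsa. The rule found 85 of the 43432 genes in the deposited table, of which 49 belong to the large subunit, 33 to the small subunit and 3 to the stalk. They lie on 19 chromosomes. Testing was limited to means of 10 normalized counts or more over the 6 samples, which 83 members reached and 2 (Rpl10l and Rpl39l) did not.

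Atrial RNA came from wild-type C57/Bl6 mice, entered as C57/Bl6J under genotype. The mice received a high-fat diet (HFD, 3 samples) or a control chow (3 samples), both from 6 weeks of age and for 10 weeks. Right and left atrial tissue was taken at the end of feeding, and the sex of the mice is not given in the sources used here. GEO's labels are at odds on the diet: in all 6 samples the treatment field names the reverse of the title. Groups follow the titles, which the table's headers match, and every direction below rests on that choice. No source used here says whether a sample is 1 mouse or a pool, and p-values measure the spread between these samples. Samples from HFD are called obese below and those from control chow lean.

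Values are normalized counts, which are reads of a gene divided by 1 size factor per sample. The samples held 15874251 to 28971508 reads on genes, of which 161944 to 270823 lay on ribosomal protein genes. Control sample 2 had the most reads and the highest mitochondrial share, 30.7%, with 19.5% to 24.4% elsewhere. A level of 3 reads, taken as the smallest signal, is worth 2.05 to 3.41 normalized counts, counting error only. The 5 cardiomyocyte markers and the 4 atrial myocyte markers were all present. The 4 ventricular markers were present as well, with a summed level of 17399 normalized counts in Control sample 2 and 6882 to 9866 in the other samples; without Control sample 2 the median log2 fold change of the members, given below, was -0.044. In bulk tissue, fewer cells of a type and less RNA per cell cannot be told apart.

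Ribosomal proteins assemble with ribosomal RNA into a small subunit, which reads the mRNA, and a large subunit, which joins amino acids. The stalk of the large subunit recruits the elongation factors. Their mRNAs typically begin with a run of pyrimidines, the terminal oligopyrimidine (TOP) tract, through which mTORC1 and the RNA-binding protein Larp1 control their translation. In the heart, ribosome number is known to follow growth of the myocytes.

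The bases around the transcription start are shown for 6 members, because this is the sequence that the family shares outside the protein. The windows run from 10 bases before to 20 bases after a start given by RefSeq (GRCm38.p6), on the transcript's strand, and capitals mark the longest run of C and T. Rps6 lies at chr4:86857348-86857377 (minus strand), Rpl15 at chr14:18270967-18270996 (minus), Rplp2 at chr7:141447641-141447670 (plus), Rpl35 at chr2:39005112-39005141 (minus), Rpl27a at chr7:109519185-109519214 (plus) and Rpl3l at chr17:24727816-24727845 (plus). The first 5 were picked for long runs and are not a sample of the family, and Rpl3l is shown for contrast.
Rps6: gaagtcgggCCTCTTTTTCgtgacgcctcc
Rpl15: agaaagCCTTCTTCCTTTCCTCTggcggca
Rplp2: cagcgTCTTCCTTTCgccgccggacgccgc
Rpl35: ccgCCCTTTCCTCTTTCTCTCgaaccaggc
Rpl27a: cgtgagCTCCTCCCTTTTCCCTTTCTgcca
Rpl3l: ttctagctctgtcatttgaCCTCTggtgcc

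RefSeq starts were matched for 63 members, with 75 starts between them, and 22 members had none. A run of at least 6 C or T lay in 40 of the 75 windows (53.3%), compared with 28.7% of the 32851 windows of all genes. Runs of at least 6 A or G, the same feature on the other strand, lay in 12% of the members' windows and in 32.0% of all windows. The motif CTTTCC was present in 10 member windows (13.3%) against 1.28% of all windows, while its reverse complement GGAAAG was in 0 of the 75 and in 1.29% of all. In the members' windows, runs of pyrimidines were thus more common than in all windows and runs of purines less common. In Rpl3l, a paralog made mainly in striated muscle, the longest run at the start shown was 5 bases. Short runs were not particular to Rpl3l: the longest was 3 bases in Rpl10 and Rpl41 and 4 in Rps4x.

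Ribosomal protein mRNAs made up about the same part of the atrial RNA on both diets. Their summed share of all normalized counts was 1.09%, 0.935% and 0.992% in Control samples 1, 2 and 3 and 1.09%, 0.957% and 1.05% in HFD samples 1, 2 and 3. The groups overlapped, with means of 1.00% ± 0.077 and 1.03% ± 0.068 (SD, n = 3 each). As a share of the counts outside the mitochondrial genome, the values were 1.43%, 1.35% and 1.31% against 1.44%, 1.24% and 1.31%. With either denominator, the gap between the group means was smaller than the spread between samples of 1 diet.

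Per kilobase of transcript, these mRNAs ranked high among atrial genes. The median over the 83 members tested was 2756 normalized counts per kb, compared with 102 per kb over the 15163 genes tested that have an annotated length. Rplp1, which pairs with Rplp2 on the stalk, had the highest mean at 9521 per kb, between 8492 and 10595 over the 6 samples. Next came Rps15, a protein of the small subunit head, with 7676 per kb (6511 to 8639), and Rpl41, the smallest ribosomal protein, with 7571 per kb (6439 to 9649). Rps9, which binds ribosomal RNA early in assembly of the small subunit, had 7457 per kb (6810 to 8014), and Rplp0, the base of the stalk, had 7191 per kb (6467 to 7678). The ranges of these last 4 overlapped, so their order is not fixed beyond the spread between samples. The range of Rplp1 also overlapped those of Rps15 and Rpl41. By subunit, the median level was 2253 per kb in the large subunit (47 members), 2797 per kb in the small subunit (33) and 7191 per kb in the stalk (3). The lowest level belonged to Rps12, with 46.0 per kb. All these levels leave out counts on sequence copies of the members, described below. They and the subunit medians also depend on the transcript used for the length. Rps20, with 2211 normalized counts, came to 597 per kb at a length of 3706 bases.

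**Figure D1:**
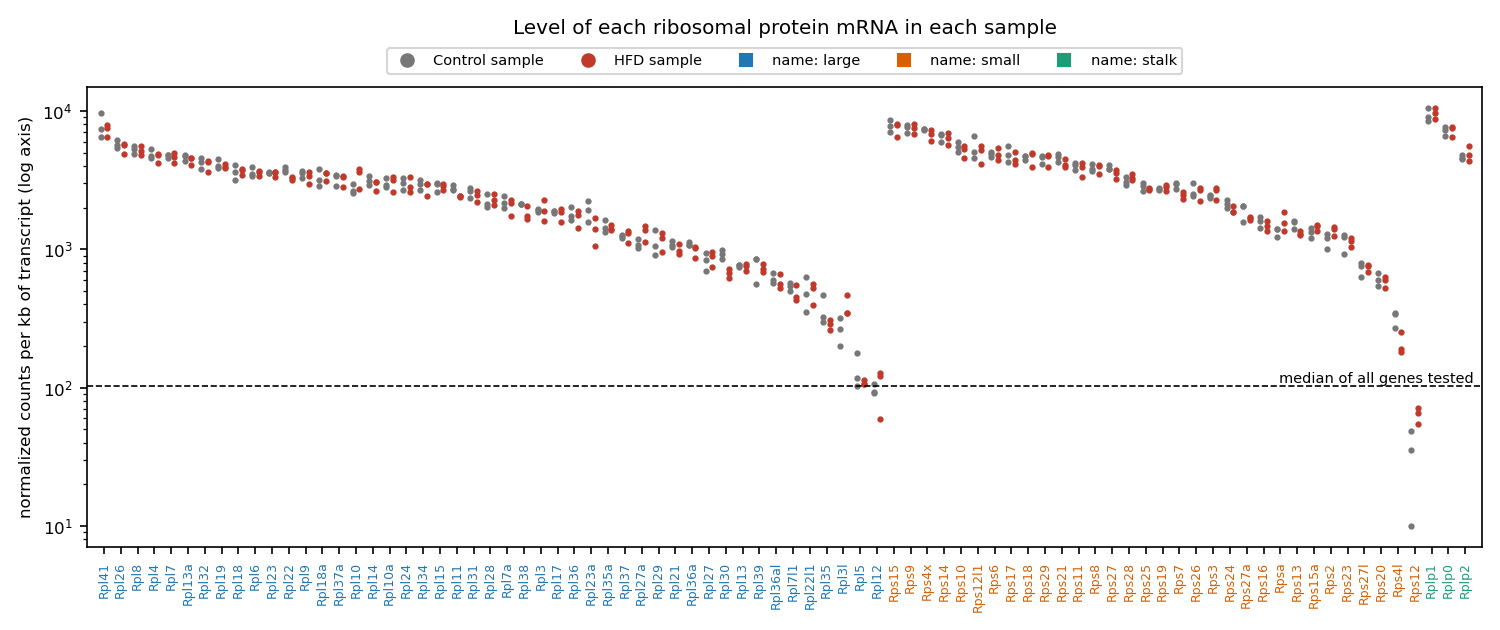
Normalized counts per kb of transcript (log axis) of 82 of the 83 members tested, in each Control sample (gray) and HFD sample (red), ordered by level within large subunit, small subunit and stalk; the dashed line is the median of all genes tested, 102 per kb, and the Control 1 value of Rps12, which is 0, is drawn at 10. Most members lie well above the line. The means of Rpl12 (99.8 per kb) and Rps12 (46.0 per kb), without the counts on their sequence copies, lie below it. The level of Rpl12 rests on a transcript length of 1242 bases.

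No ribosomal protein passed the test between the diets. In the limma fit across all genes, 0 of the 83 members had an adjusted p under 0.05, beside 0.746% of the 15275 genes tested (0.484% higher and 0.262% lower in HFD). At an unadjusted p under 0.05 there were 5 members (1 higher, 4 lower), or 6.02% of them, beside 12.2% of all genes (6.66% higher, 5.55% lower). On the recovered reads, edgeR and DESeq2 also called 0 members, with 5 and 6 at an unadjusted p under 0.05. Of all 15275 genes, edgeR called 87 (TMM) and 91 (RLE), and DESeq2 called 470. The share of all genes at an unadjusted p under 0.05 was not computed for these count tests. The smallest adjusted p by limma was 0.152, for Rpl30. The 3 samples of each diet did not overlap for 12 members (2 higher, 10 lower in HFD), which is 14.5% of the members beside 18.0% of all genes (8.86% higher, 9.17% lower).

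The fitted differences were small and narrowly bounded. The median log2 fold change (HFD minus Control) was -0.038, with quartiles of -0.10 and 0.011, beside 0.0049 over all genes. It was below 0 for 59 members (71.1%) and above 0 for 24, whereas 49.2% of all genes were below 0. The subunits had close medians, with -0.042 over 47 large subunit members and -0.038 over 33 small subunit members. The median standard error of a member was 0.12, compared with 0.18 over all genes. For 74 of the 83 members (89.2%) the 95% interval of the fold change lay within 1.5-fold in either direction, beside 46.5% of all genes tested. The members were more abundant than most genes (median 2756 against 102 per kb), and these comparisons were not matched for level. The 9 members whose interval reached past 1.5-fold were Rps4l, Rpl30, Rpl3l, Rpl23a, Rpl10, Rpl35, Rps12, Rpl5 and Rpl12.

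**Figure D2:**
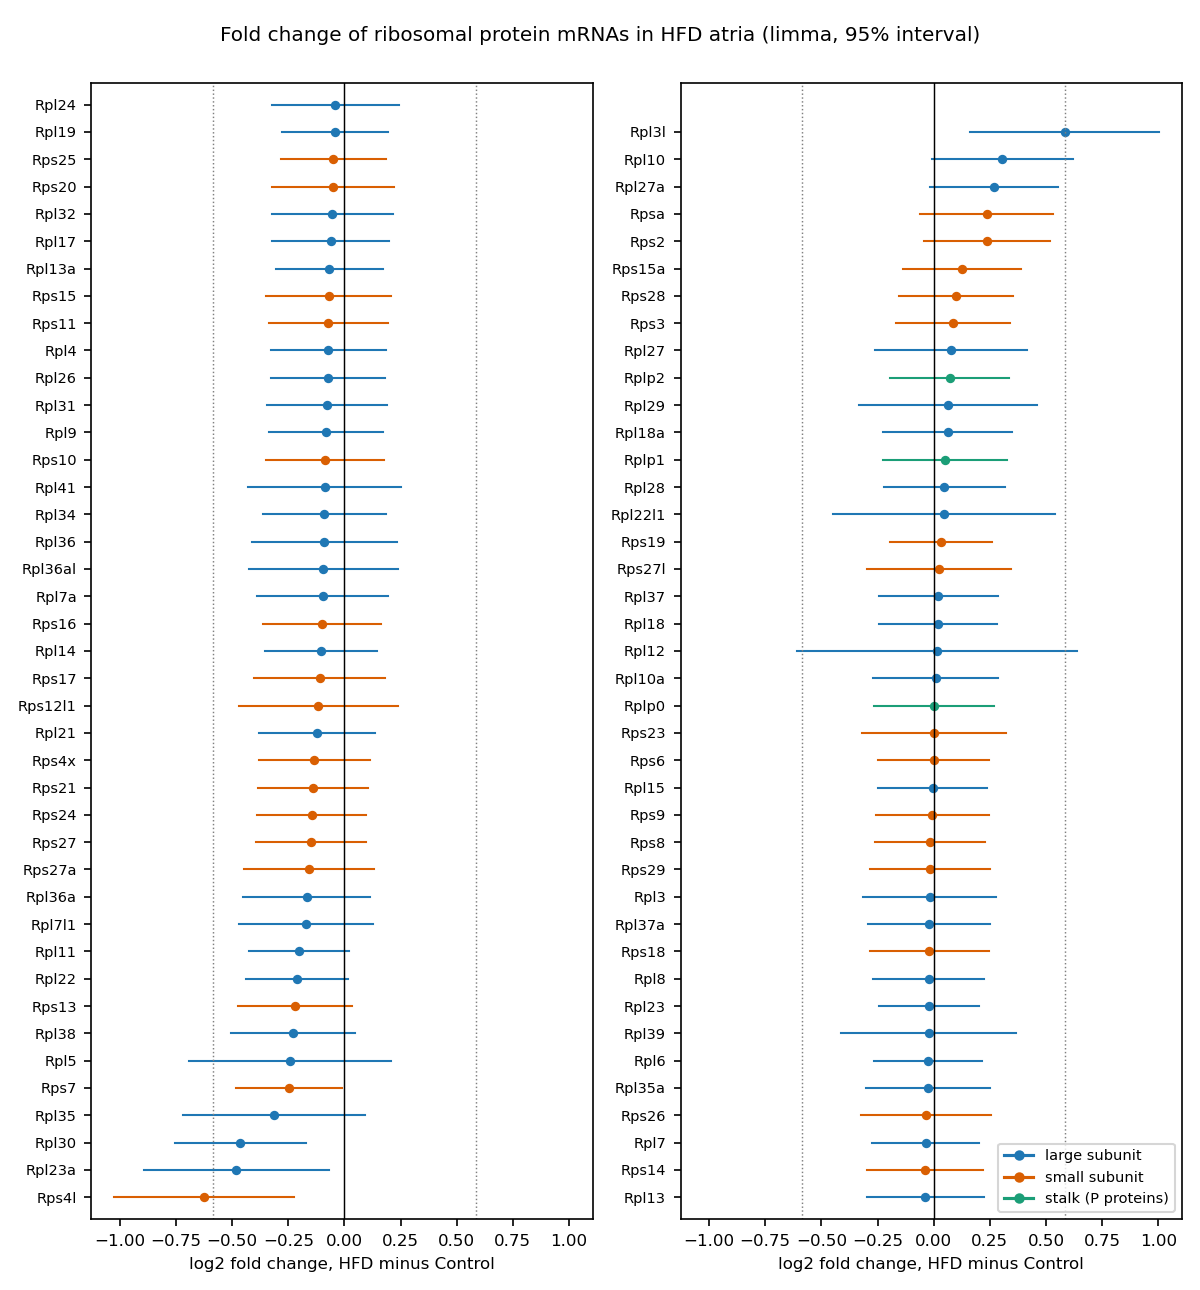
Log2 fold change (HFD minus Control, horizontal axis) with its 95% interval from limma for 81 of the 83 members tested, colored by subunit, with dotted lines at 1.5-fold in either direction; Rps12, at 2.07, lies beyond the axis and is left out, as is 1 other member. Most intervals cross 0 and stay between the dotted lines, with Rps4l lowest and Rpl3l highest of those drawn.

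The 3 stalk proteins overlapped between the diets. Rplp0 measured 10426, 9881 and 8952 normalized counts in Control samples 1, 2 and 3 and 10190, 8783 and 10360 in HFD samples 1, 2 and 3. Rplp1 measured 5287, 4492 and 4238 against 4849, 4371 and 5268, and Rplp2 measured 1936, 2033 and 1896 against 2039, 1816 and 2340. HFD sample 2 was the lowest of the obese samples in each of these genes. The log2 fold changes were 0.0026, 0.050 and 0.072, with limma adjusted p of 0.997, 0.919 and 0.864.

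Rps6, Rps27a and Rpsa are known for a second role. Rps6, the ribosomal substrate of the S6 kinases, measured 4401, 4095 and 4304 in the lean samples and 4735, 4187 and 3908 in the obese samples, with the groups interleaved. Its log2 fold change was -0.00056 ± 0.11 (SE), and the 95% interval of the fold was 0.842 to 1.19. Rps27a, which is made as a fusion with ubiquitin, measured 999, 1309 and 1303 against 1074, 1039 and 1099, so that Control sample 1 lay below all obese samples and the other two above them. Rpsa, the small subunit protein also known as laminin receptor precursor, measured 2256, 2233 and 1955 against 2491, 2176 and 2971, and HFD sample 2 fell among the lean samples. Neither Rps27a (log2 fold change -0.16, limma adjusted p = 0.686) nor Rpsa (0.24, adjusted p = 0.529) passed the test. Without Control sample 1 the log2 fold change of Rps27a was -0.29, without Control sample 2 it was -0.092 and without Control sample 3 it was -0.095, while that of Rpsa was 0.12 without HFD sample 3.

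The lowest fold changes belonged to Rps4l, Rpl23a, Rpl30, Rpl35 and Rps7. Rps4l, an autosomal relative of the X-linked small subunit gene Rps4x, measured 255, 322 and 329 normalized counts in the lean samples and 172, 179 and 239 in the obese samples. All 3 obese samples lay below all lean samples. Its log2 fold change was -0.62 ± 0.18 (SE), a fold of 0.491 to 0.857 (95% interval), with an adjusted p of 0.164 by limma. Rpl30, a large subunit protein at the interface of the subunits, measured 486, 566 and 531 against 386, 352 and 410, again without overlap. Its log2 fold change was -0.46 ± 0.13 (SE), with a limma adjusted p of 0.152. Rpl23a, which lies at the exit of the peptide tunnel, measured 1072, 1261 and 888 against 948, 588 and 789, and HFD sample 1 lay above Control sample 3. Its log2 fold change was -0.48 ± 0.19 (SE), with a limma adjusted p of 0.331, and it was -0.30 without HFD sample 2.

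Rpl35, also near the tunnel exit, measured 440, 308 and 282 in the lean samples and 292, 273 and 249 in the obese samples. Control sample 1 stood above the other 5 samples, which lay close together. Without it the log2 fold change of Rpl35 was -0.12, compared with -0.31 ± 0.18 (SE) over all samples. Rps7, a small subunit protein that can also bind Mdm2, measured 2414, 2255 and 2477 against 1882, 2011 and 2133, with every obese sample below every lean sample. The difference was -0.25 ± 0.11 (SE) on the log2 scale (limma adjusted p = 0.383).

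The highest fold changes belonged to Rps12, Rpl3l, Rpl10, Rpl27a and Rps2. Rpl10, which joins the large subunit late in its assembly, measured 2364, 2113 and 2052 in the lean samples against 2908, 2173 and 3058 in the obese samples. Rpl27a, of the large subunit, measured 1236, 1188 and 1366 against 1591, 1300 and 1697. Rps2, which sits where the mRNA enters the small subunit, measured 1205, 1279 and 1008 against 1406, 1244 and 1452. The pattern was the same in these 3 genes: HFD samples 1 and 3 lay above every lean sample, and HFD sample 2 lay among them. The log2 fold changes were 0.30, 0.27 and 0.24, and the limma adjusted p-values were 0.426, 0.443 and 0.505. Without Control sample 3, that of Rps2 was 0.14.

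Some paralogs of ribosomal proteins replace their counterparts in certain tissues, and 8 pairs of a paralog and its counterpart were in the table. Rpl3l, which takes the place of Rpl3 in heart and skeletal muscle ribosomes, measured 364, 437 and 275 normalized counts in the lean samples and 642, 478 and 480 in the obese samples. Every obese sample lay above every lean sample. The log2 fold change was 0.58 ± 0.19 (SE), a fold of 1.12 to 2.01 (95% interval), with an adjusted p of 0.227 by limma. Rpl3 itself, beside the peptidyl transferase center, measured 2664, 2579 and 2531 against 2564, 2149 and 3049, so that the obese samples lay on both sides of the lean samples. Its log2 fold change was -0.017 ± 0.13 (SE).

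Per kb of transcript, Rpl3l made up 11.8%, 14.3% and 9.66% of the sum of Rpl3l and Rpl3 in the lean samples and 19.7%, 17.9% and 13.4% in the obese samples. The means were 11.9% ± 2.30 and 17.0% ± 3.27 (SD, n = 3 each), and HFD sample 3 lay below Control sample 2. The log2 ratio of Rpl3l to Rpl3 was 0.60 higher in HFD (exact permutation test over samples, two-sided p = 0.2, and 0.6 after Benjamini-Hochberg adjustment over the 6 pairs tested). With 3 samples against 3, that test cannot give a p below 0.1. The shares and the ratio leave out counts on the sequence copies of Rpl3, described below.

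The pair of Rps4l and Rps4x moved the other way. Rps4x measured 7229, 7187 and 7099 in the lean samples and 7091, 5916 and 6653 in the obese samples, with HFD sample 1 just under the lean samples and HFD sample 2 lowest. Rps4l made up 3.52%, 4.43% and 4.57% of the pair per kb in the lean samples and 2.44%, 3.04% and 3.57% in the obese samples. The highest obese value was just above the lowest lean value. The log2 ratio was lower in HFD by 0.49 (difference -0.49, exact permutation p = 0.2, adjusted 0.6).

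In the other 4 pairs the log2 ratio of paralog to counterpart differed between the diets by -0.13 to 0.26. Rpl22l1, whose mRNA is repressed by its relative Rpl22, measured 196, 263 and 349 in the lean samples and 312, 217 and 291 in the obese samples, and the groups overlapped. Rpl22 was steadier, at 1783, 1863 and 1727 against 1588, 1505 and 1547. All obese samples lay below all lean samples for Rpl22, by 0.21 on the log2 scale (difference -0.21 ± 0.10, limma adjusted p = 0.447). The difference of the ratio was 0.26 (exact permutation p = 0.6, adjusted 0.72).

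Rps27l, a p53 target related to Rps27, measured 314, 381 and 395 against 379, 384 and 340, while Rps27 measured 1402, 1322 and 1305 against 1234, 1113 and 1294. Rps27 was lower in every obese sample than in every lean sample, though HFD sample 3 and Control sample 3 nearly met, and Rps27l overlapped. Rpl7l1, a nucleolar relative of Rpl7, measured 710, 657 and 747 against 593, 566 and 727, and Rpl7 measured 5557, 5320 and 5562 against 5758, 4930 and 5372. Rpl36al, a paralog of Rpl36a, measured 357, 318 and 302 against 293, 276 and 348, and Rpl36a measured 516, 523 and 544 against 493, 501 and 419. For Rpl36a the groups did not overlap, and for the 2 genes of the Rpl7 pair and for Rpl36al they did. The exact permutation p-values of these 3 ratios were 0.4 (Rps27l), 0.4 (Rpl7l1) and 0.9 (Rpl36al).

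The 2 members below the test level are paralogs known from the male germ line. Rpl10l, which stands in for the X-linked Rpl10 in meiosis, was at 1.00 normalized counts in HFD sample 1 and at 0 in the other 5 samples. Rpl39l measured 1.12, 1.37 and 0 in the lean samples and 0, 2.04 and 1.14 in the obese samples. All these values are under 3 reads. Rpl39, the counterpart of Rpl39l in the peptide tunnel, measured 344, 524 and 517 against 440, 482 and 418, and the obese samples lay inside the lean range.

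**Figure D3:**
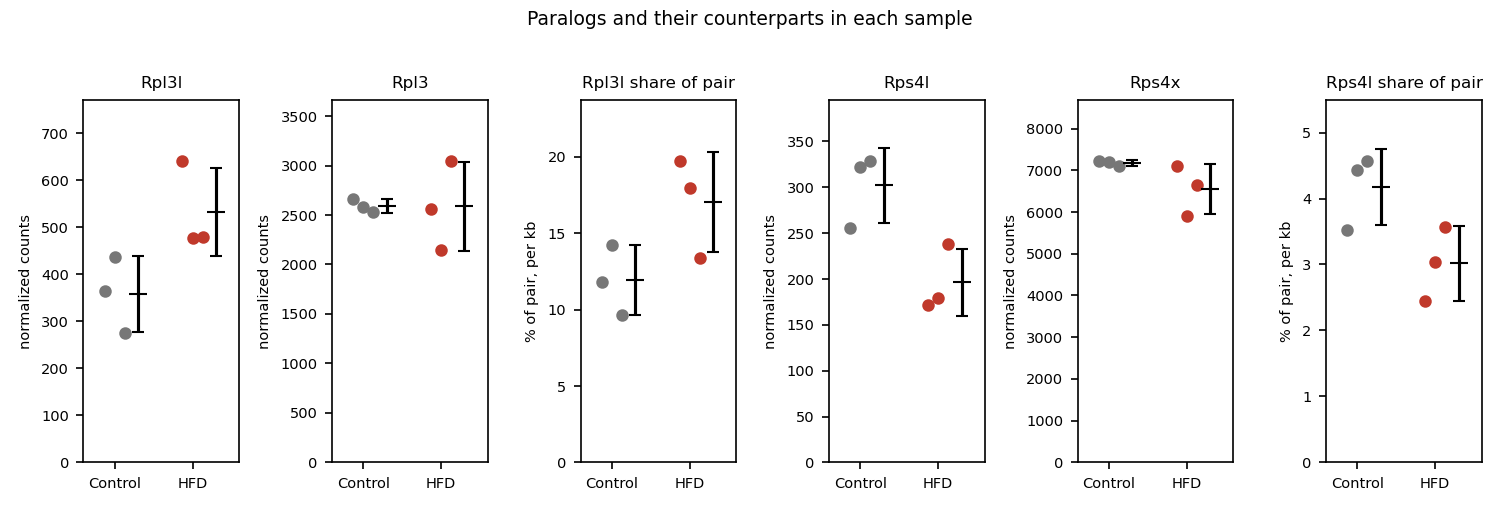
Normalized counts of Rpl3l, Rpl3, Rps4l and Rps4x and the share of each paralog in its pair per kb (%), with 1 point per sample (Control gray, HFD red) and the mean ± SD (n = 3) beside the points; axes start at 0. Rpl3l is higher in all 3 HFD samples and Rps4l lower, while their shares overlap between the diets. Counts on sequence copies are left out.

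Many ribosomal protein mRNAs cannot be separated from their sequence copies by short reads. The reads were 50 bases long, and of the stretches of 50 bases in a member's transcript, a median of 53.6% also occurred in the annotated transcript of another gene. These percentages depend on the transcript used, which for Rps20 was 3706 bases long. Over 50% of the stretches were shared for 49 of the 85 members, while Rpl3l and Rpl39l shared none. The clearest case is Rps12, a small subunit protein. The transcript of Rps12l1 (GRCm38, chr7, plus strand), of 399 bases and typed as a processed pseudogene in the deposited table, lies whole inside that of Rps12 on chromosome 10, from base 83 of it. Its first 50 bases are shown because every one of its reads could equally come from Rps12, and capitals mark the start codon that both share.
Rps12l1, chr7:56014016-56014065: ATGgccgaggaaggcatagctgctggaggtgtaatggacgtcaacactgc

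The counts of the pair lay almost wholly on the copy. The methods retain only reads mapped uniquely to the genome. Among annotated transcripts, no stretch of 50 bases belongs to Rps12l1 alone, but uniqueness on the genome was not checked. How shared reads were assigned was not tested. Rps12 measured 0, 24.0 and 17.5 normalized counts in the lean samples and 27.1, 32.6 and 35.2 in the obese samples, whereas Rps12l1 measured 2616, 2007 and 1836 against 2092, 1638 and 2211. Every obese sample lay above every lean sample for Rps12, and the groups overlapped for Rps12l1. The log2 fold change of Rps12 was 2.07 ± 1.03 (SE, limma adjusted p = 0.462) and rested on the 0 in Control sample 1. It was 0.60 without that sample, 3.18 at a pseudocount of 0.1, and 1.14 and 1.17 with edgeR and DESeq2 on the recovered reads. Summed over Rps12 and the copies that share stretches of 50 bases with it, the values were 2655, 2032 and 1856 against 2122, 1676 and 2255. On the log2 scale this sum differed by -0.11, with overlap between the diets.

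Of the 83 members tested, 79 had such copies, and for 18 the copies held more than 50% of the summed value. Copies held 94.7% of the sum for Rpl12 and 95.6% for Rpl5, and these sums differed by -0.029 and 0.030 on the log2 scale. Rpl30 summed with its 12 copies came to 1732, 1721 and 1784 in the lean samples and to 1719, 1611 and 1722 in the obese samples. The sum of Rpl30 differed by -0.052 on the log2 scale, compared with -0.46 for Rpl30 alone, and HFD sample 3 lay above Control sample 2. Rpl23a went from -0.48 alone to -0.084 with its 15 copies, Rpl10 from 0.30 to -0.0095 with 10 copies, and Rpl27a from 0.27 to 0.0080 with 17 copies. Rps7 went from -0.25 to -0.11 with 8 copies, and the diets overlapped for its sum. Rps4l (-0.62) and Rpl3l (0.58), which had no counts on copies, were the same alone and summed. Rpl35 went the other way, from -0.31 to -0.52 with 5 copies, which held 8.61% of its sum. Rpl3 went from -0.017 to -0.13 with 21 copies, which held 52.5% of its sum. The shares of Rpl3l given above count Rpl3 alone and would be lower with these copies added. Copies also held 48.4% of the sum for Rps27, 52.1% for Rpl36a and 61.9% for Rpl36al. Over all 83 members the median of the sums was -0.055, with 14 above 0 and 69 below. This summing was chosen after the data had been seen, and single fold changes of members with many copies are uncertain.

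**Figure D4:**
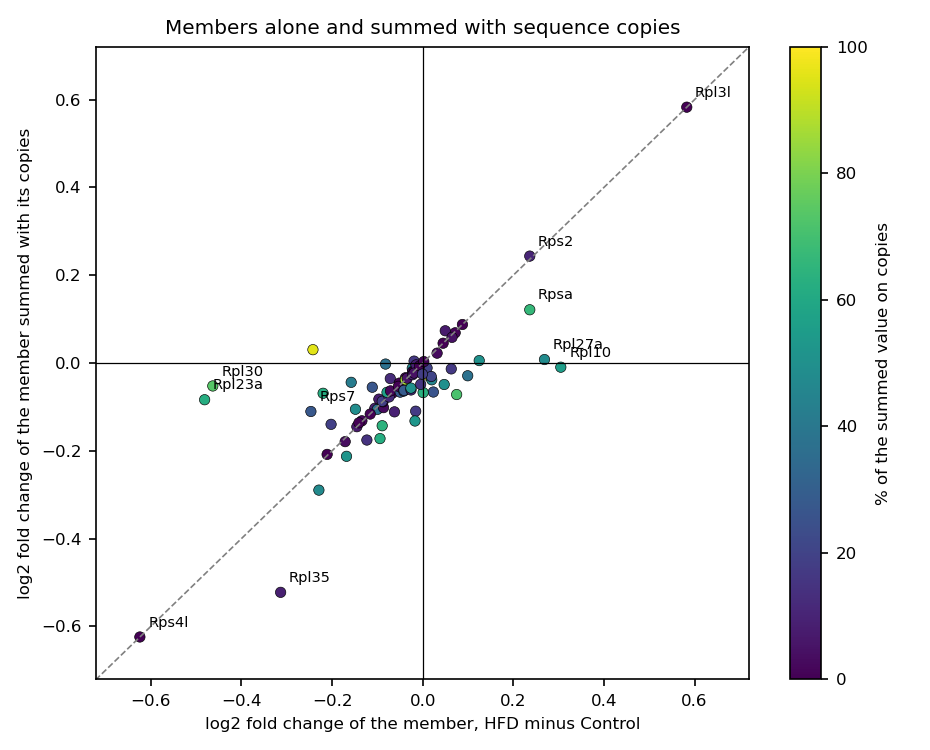
Log2 fold change (HFD minus Control) of each member alone (horizontal) and summed with the copies that share stretches of 50 bases with it (vertical), for 82 members without Rps12; color gives the percent of the summed value on copies, and the dashed line marks equal values. Rpl30, Rpl23a, Rpl10 and Rpl27a move close to 0 on the vertical axis, while Rps4l and Rpl3l stay on the line.

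The members varied together from sample to sample, and HFD sample 2 stood apart. It had the lowest value of the 6 samples for 49 of the 83 members (59.0%), compared with 18.9% of all genes tested, and the highest for 0. Control sample 1 had the highest value for 35 members (42.2%), compared with 15.5% of all genes. Averaged over the 83 members, the log2 difference from each member's mean was -0.13 in HFD sample 2 and between -0.027 and 0.053 in the other 5 samples. After quantile normalization this average was -0.14 in HFD sample 2, and with mitochondrial genes left out it was -0.10. The median difference over the members, less moved by single genes, was -0.15 in HFD sample 2 and 0.098 in Control sample 1. It was between -0.046 and 0.051 in the other samples. The sign of the members' median log2 fold change rested on HFD sample 2. Without that sample the median log2 fold change was 0.017, with 50 members above 0 and 33 below, while leaving out any other sample gave -0.075 to -0.016.

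Markers of cell types also differed between samples, though not all in the pattern of the members. The summed atrial myocyte markers (4 genes) were 434544 to 478294 normalized counts in the lean samples, and 283677, 280221 and 510615 in HFD samples 1, 2 and 3. The 5 cardiomyocyte markers summed to 751496 to 761455 in the lean samples and to 511705, 652990 and 879243 in HFD samples 1, 2 and 3. Single cardiomyocyte markers differed in their order. Myh6 measured 274106, 383881 and 461411 in HFD samples 1, 2 and 3, and Ryr2 measured 23583, 28345 and 25740. The members averaged 0.039 above their means in HFD sample 1. The 5 macrophage markers summed to 3536 to 3983 in the lean samples and 4281 to 4983 in the obese samples, highest in HFD sample 2, and 1 of the 5 rose by the limma test. Their log2 fold changes were uneven, from -0.0086 (Csf1r) to 0.95 (Cd163), with 4 above 0 and 1 below. The 5 endothelial markers, none of which passed the test, summed to 11802 to 12280 and 14086 to 15398, also highest in HFD sample 2. All 5 had a log2 fold change above 0, from 0.037 (Cdh5) to 0.57 (Pecam1). Pecam1 went from a mean of 3989 in the lean samples to 5917 in the obese samples, most of the gap between the sums. The part of any of these cell types in the low values of the members was not tested. Both brown adipocyte markers tested rose, and their list of 3 summed to 145 to 270 in the lean samples and 444 to 1139 in the obese samples, lowest of the obese samples in HFD sample 2.

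**Figure D5:**
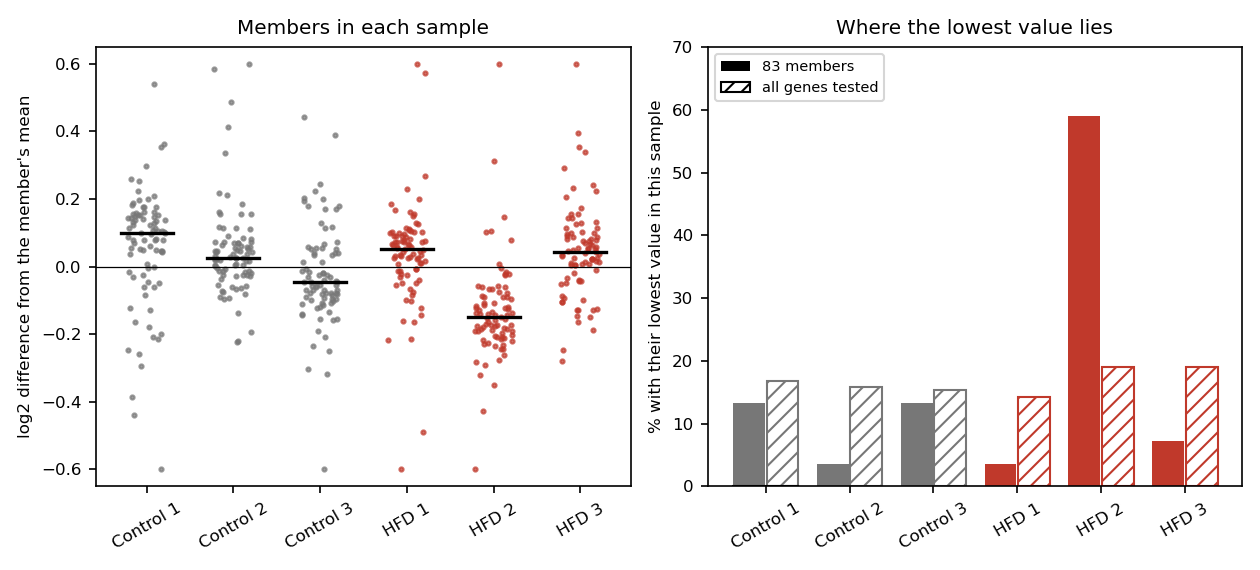
Left, the log2 difference of each of the 83 members from its mean over the 6 samples, by sample (Control gray, HFD red), with the median as a bar and values beyond 0.6 in either direction drawn at 0.6; right, the percent of members (filled) and of all genes tested (hatched) whose lowest value lies in that sample. HFD sample 2 holds the lowest value for 59.0% of the members and 18.9% of all genes.

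Within a diet, the members were steadier than atrial genes at large. The median within-group SD was 0.13 on the log2 scale over 83 members and 0.22 over all genes tested. Among genes averaging 1000 normalized counts or more it was 0.126 for 59 members and 0.151 for 2707 genes. Once each sample's average over the members was subtracted, the median SD of the members was 0.10. The steadiest were Rpl22, Rpl11 and Rpl23, with SDs of 0.047, 0.049 and 0.049, and Rps12 was the most variable, with 1.82.

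Among 88 tested genes that make or regulate ribosomes, in 5 lists, 0 passed the limma test between the diets, beside 0.746% of all genes. At an unadjusted p under 0.05 by limma there were 3, beside 12.2% of all genes. By edgeR and by DESeq2 on the recovered reads 0 passed as well, with 2 at an unadjusted p under 0.05 in each. Of all 15275 genes, edgeR called 87 (TMM) and 91 (RLE), and DESeq2 called 470. Of the proteins outside the name rule, Rps3a1, Gnb2l1 and Fau had log2 fold changes of -0.021, 0.0091 and 0.091. The 16 translation factors and other mRNAs known for a TOP tract had a median of 0.016 (9 above 0, 7 below). In this list Hnrnpa1, which binds pre-mRNA, had the smallest p (log2 fold change -0.32, limma adjusted p = 0.299). The 35 ribosome assembly factors had a median of 0.099 (22 above 0, 13 below), and Ddx21, a nucleolar helicase, measured 617, 566 and 707 in the lean samples against 678, 830 and 901 in the obese samples (0.35, adjusted p = 0.370). HFD sample 1 lay below Control sample 3.

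The 14 subunits and factors of RNA polymerase I, which transcribes ribosomal RNA, had a median of 0.068 (9 above 0, 5 below). Its subunit Polr1e measured 204, 216 and 252 against 150, 119 and 215 (-0.51, limma adjusted p = 0.387), with overlap. The 19 genes of the mTORC1 arm and of TOP regulation had a median of 0.045 (12 above 0, 7 below). Larp1, the regulator of TOP mRNAs named above, measured 2067, 2123 and 2067 in the lean samples and 2243, 2555 and 2491 in the obese samples. All obese samples lay above all lean samples for Larp1, by 0.22 on the log2 scale (SE 0.10, limma adjusted p = 0.442).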

How the data were processed

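Directional single-end libraries were sequenced. Alignment to GRCm38 was with STAR, only reads with a unique position were retained, Salmon gave the reads per Ensembl gene, and the authors scaled these with DESeq2. Versions are not given in the sources used here, nor whether strand was used. For each sample and gene, the deposited signal equals reads over a size factor (normalized counts). Dividing by the smallest positive value gave whole reads (within 0.01) for 100% of values. The authors' comparison columns (mean, fold change, standard error, statistic, p-values, ranking metric) were not used. GENCODE M21 named 42462 of 43432 identifiers, and 1 row without an identifier, at 0 in every sample (0% of reads), was dropped.

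The members and gene lists were chosen with earlier results of these data known. Gene names are in capitals in the table, so case was ignored. HFD and Control were compared by limma 3.58.1 (R 4.3.3, variance trend) on log2(normalized count + 1), a scale that understates changes of low genes. Genes averaging 10 or more entered, and p-values were adjusted by Benjamini-Hochberg over 15275 genes. Levels per kb used the shortest principal transcript of GENCODE where such a transcript was tagged, and otherwise the longest transcript. Some lengths were large, with 3706 bases for Rps20, 1242 for Rpl12 and 1158 for Rpl27a, and a larger length gives a lower level per kb. Whether these transcripts are the main ones in atria was not tested. Alternatives included edgeR 4.0.16 and DESeq2 1.42.0 on recovered reads. The test was checked on simulated data. Members named are the 5 highest and 5 lowest fold changes, the 5 highest per kb, 8 paralog pairs, the stalk, Rps27a, Rpsa, Rps6 and those under the mean of 10; Rpl5, Rpl11, Rpl12, Rpl15, Rpl23 and Rps12l1 were named after their values were seen. Some single-gene results are not reported here.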

Additional observations from a re-analysis of the deposited data

How the results depend on the processing

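Under all 17 alternatives (other normalizations, filters, pseudocount, variance model, count tests on recovered reads, the replicate block and each sample left out), 0 members were called in either direction. The smallest adjusted p of a member in any of them was 0.0501, for Rps4l without HFD replicate 3. The number of genes called over all genes moved more, from 114 in the test reported to 0 without a variance trend, 157 with the replicate block, 470 with DESeq2, 87 and 91 with edgeR (TMM and RLE) and between 14 (without Control replicate 2) and 342 (without HFD replicate 3) with a sample left out; the cause was not tested. The members' median was -0.038 with the replicate block, -0.077 after quantile normalization and -0.042 with mitochondrial genes left out. Same-numbered samples come from mice on different diets, with correlations of 0.12, -0.027 and -0.0039 between same-numbered samples, and the replicate block changed no call among the members. The log2 ratio of the mean share of counts was 0.040, -0.038 outside the mitochondrial genome, 0.032 with 251 named pseudogenes added, and -0.0097 to 0.10 with a sample left out. Of 509 values of the 30 named members tested, 32 had the opposite sign, all of uncalled differences near 0. For Rplp0 these were -0.045 after quantile normalization and -0.0017 without mitochondrial genes, and for Rps6 0.0023 and 0.0030 with edgeR (TMM and RLE) and 0.0032 with DESeq2. With a sample left out, the ranges were -0.16 to 0.25 (Rpl22l1), -0.14 to 0.11 (Rpl3), -0.22 to 0.081 (Rpl39), -0.21 to 0.072 (Rpl41), -0.090 to 0.022 (Rpl7), -0.058 to 0.078 (Rplp0), -0.017 to 0.14 (Rplp1), -0.022 to 0.16 (Rplp2), -0.14 to 0.027 (Rps15), -0.078 to 0.087 (Rps27l), -0.076 to 0.062 (Rps6) and -0.063 to 0.056 (Rps9). Groups of 3 limit the design: 9 of 83 members have an interval that reaches past 1.5-fold. Rps12 rests on 0 to 35 reads per sample. All directions assume that the sample titles, and not the treatment field, give the diet.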
